A study of Mus musculus with 12 samples.

Results

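The microRNAs mmu-miR-6385, mmu-miR-7686-5p, mmu-miR-3475-5p, and mmu-miR-3620-3p, whose scaled array signal fell after injury, were followed on every array of the study. They are 4 of the 1881 mouse miRNAs named on the arrays and 4 of the 486 miRNAs tested. They were selected on their lower scaled signal at 14 or 42 days post-injury (DPI) than in the sham group, so their values at those times are given as a description, with no test. The 3 DPI arrays and the opposite arms of the same hairpins had no part in the choice, and tests were kept to these. The comparison of 3 DPI with sham is not independent of the choice, because it shares the sham arrays.

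The arrays measured RNA of microglial exosomes from the brains of male C57BL/6 mice, adults of 12 weeks, with 3 arrays in each of 4 groups. The injured groups received 4 closed-head impacts at 48-h intervals, a model of repetitive mild traumatic brain injury (rmTBI), and were killed at 3, 14, or 42 DPI. The sham group underwent the same handling without impact, and its day of harvest is not given in the sources used here. Exosomes were precipitated from papain-digested cerebrum and captured with an antibody against CD11b, a surface protein that microglia share with other myeloid cells. The labels name the injured hemisphere as the source tissue, whereas the methods name cortex and hippocampus of both sides. Whether the 3 arrays of a group stand for separate animals or pools of animals is not stated, so p-values measure the spread between arrays, which may be technical.

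Exosomes are small vesicles that cells release with proteins and RNA inside, and brain microglia are among the cells that release them. A miRNA is a short RNA cut from a hairpin precursor, which can yield a mature strand from its 5' arm (-5p) and another from its 3' arm (-3p). The mature strand guides a silencing complex to messenger RNAs that pair with its seed, the short stretch near its 5' end. Mouse miRNAs are numbered in order of registration, so the high numbers of the 4 miRNAs mark late entries. They are not among the well-studied miRNAs of brain or immune cells.

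The mature strands are shown because the arrays read these sequences and because the seed decides which family a miRNA belongs to. They are from RefSeq (GRCm38.p6), 5' to 3', with the seed (bases 2 to 8) in capitals.
mmu-miR-6385: gCAAGGAUgacagagaggaag
mmu-miR-7686-5p: cCUUCCACuggaccuggggcugggc
mmu-miR-3475-5p: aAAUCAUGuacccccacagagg
mmu-miR-3620-3p: cUGCUCAGccccgcccacccca

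No seed was shared among the 4 strands. Among the 1608 array miRNAs with a sequence in the table (85.5% of 1881), the only other strand with one of these seeds was miR-96-3p, which carries the seed of miR-3475-5p. Its spots passed the background call on 0 of 12 arrays, with a signal between -3.12 and 3.28 units, and was not tested. The strands differ in base composition. G and C make up 77.3% of miR-3620-3p and 72% of miR-7686-5p, against 52.4% of miR-6385 and 50% of miR-3475-5p. Of the 418 tested miRNAs with a sequence, 405 have a lower GC share than miR-3620-3p and 394 a lower one than miR-7686-5p.

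The strands come from 3 chromosomes. In GRCm38.p6 miR-6385 lies at chr9:58221155-58221175 on the plus strand, within the span of Pml, the gene of the protein that scaffolds PML nuclear bodies. The position of miR-7686-5p is chr7:139957598-139957622 on the minus strand, within the span of the long noncoding RNA gene Gm16201. The strand of miR-3475-5p is found at chrX:140310949-140310970, plus strand, within the spans of Frmpd3 and of the long noncoding RNA gene Gm32113. The fourth, miR-3620-3p, lies at chrX:150547385-150547406 on the minus strand, within the span of Apex2, which encodes an apurinic/apyrimidinic endonuclease of DNA repair. The gene table used gives spans without exons, so whether these positions are exonic or intronic was not analysed here.

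The signal of a miRNA is the sum of its probes' background-corrected fluorescence in scanner units, where each of the 4 miRNAs has 2 probes and each probe is the average of 11 to 15 spots per array. To compare arrays of different brightness, the signal was divided by the 75th percentile of the array, taken over the 230 miRNAs detected on all 12 arrays, and this scaled signal is given as a percent of that percentile. Detection on an array required that 1 probe or more had over 0.5 of its spots well above background. All 4 miRNAs were detected on all 12 arrays, and 0 spots on the arrays were saturated.

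The brightness itself rose with time after injury. The 75th percentile was 217 to 348 units on the sham arrays. It reached 401 to 619 units at 3 DPI, then 588 to 1173 at 14 DPI, and finally 1385 to 2936 at 42 DPI. From mean log2 values, this is a rise of 1.73-, 3.30-, and 7.05-fold over sham. Between 243 and 285 miRNAs were detected per sham array and between 490 and 579 per array at 42 DPI. The slide moves with this change, because the 3 sham arrays were on slide 1 with 1 array of 3 DPI, and the remaining 8 were on slide 2. The lists of cell-type miRNAs moved unequally. For 5 neuronal miRNAs (5 of 5 detected on every array) the summed scaled signal was 15.7 to 20.9 times the percentile in sham. At 42 DPI it was 28.6 to 32.8 times. That of 2 oligodendrocyte miRNAs was 1.44 to 2.08 and 3.22 to 3.59 times. The sum of 3 erythrocyte miRNAs, 3 of 3 detected on 0 sham arrays, was lower later, 0.0848 to 0.124 in sham and 0.0443 to 0.0829 at 42 DPI. For 5 miRNAs enriched in myeloid cells the sum was 0.128 to 0.168 in sham and 0.150 to 0.191 at 42 DPI, ranges that overlap. Of these, 0 of 5 were detected on all sham arrays and 3 of 5 on all arrays of 42 DPI, and miR-142a-3p, miR-142a-5p, miR-146a-5p, and miR-155-5p were detected on 0 sham arrays, although the exosomes are labeled microglial. The part of brightness, slide, or cell source in the values that follow was not tested. In exosome preparations, fewer vesicles of a source and less of a miRNA per vesicle cannot be told apart.

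The unscaled signals of the 4 miRNAs did not follow the rise in brightness of the arrays. The signal of miR-3475-5p was 28.6, 29.5, and 30.4 units on the sham arrays, 28.7, 35.6, and 41.1 at 3 DPI, 29.5, 38.0, and 40.8 at 14 DPI, and 35.5, 39.4, and 41.5 at 42 DPI. The values of 3 and 14 DPI overlap those of sham at their low end, and all 3 values of 42 DPI lie above every sham value. From the dimmest to the brightest of the 12 arrays its signal differed 1.45-fold.

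A similar course was seen for miR-3620-3p, which gave 46.9, 45.7, and 47.6 units in sham, 43.6, 60.8, and 67.5 at 3 DPI, 51.1, 62.7, and 71.2 at 14 DPI, and 64.2, 65.4, and 69.0 at 42 DPI. Every array of 14 and 42 DPI was above every sham array, and 1 array of 3 DPI was below them. The ratio of the highest to the lowest array was 1.63.

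The signal of miR-7686-5p was 189, 139.7, and 182 units in sham, 217, 127, and 214 at 3 DPI, 396, 191, and 157 at 14 DPI, and 254, 164, and 187 at 42 DPI. The 4 groups overlap, and replicate 1 of 14 DPI stands above the other 11 arrays. The range over the 12 arrays was 3.12-fold.

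The most variable of the 4 was miR-6385, at 413, 124, and 133 units in sham, 302, 335, and 510.1 at 3 DPI, 244, 152, and 141.98 at 14 DPI, and 310.3, 126, and 155 at 42 DPI. Within sham, replicate 1 was far above the other arrays of its group, and the groups overlap at every time. Its signal ranged 4.10-fold over the 12 arrays.

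**Figure D1:**
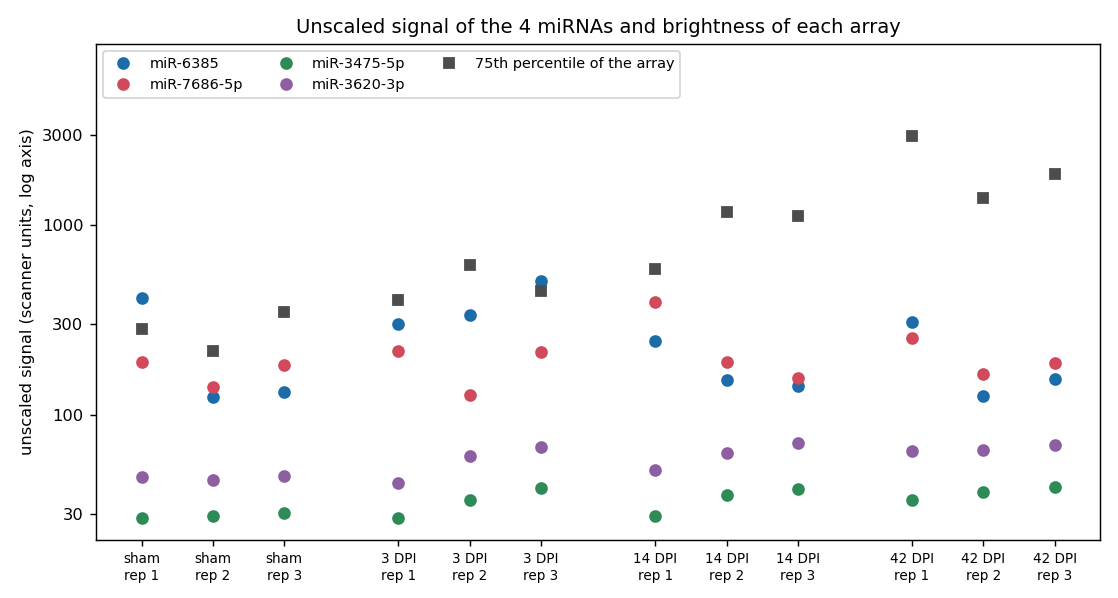
Unscaled signal of the 4 miRNAs (colored points, scanner units, log axis) and the 75th percentile of each array (gray squares) for the 3 replicates of sham, 3, 14, and 42 DPI. Between sham and 42 DPI the squares rise from 217 to 348 units up to 1385 to 2936 units, while each colored series stays within a 1.45- to 4.10-fold range over the 12 arrays; levels of different miRNAs come from different probes and are not compared.

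The spread of the unscaled values is set beside that of the other miRNAs as a description. Over the 12 arrays, the SD of the log2 unscaled signal was 0.22 for miR-3475-5p, 0.26 for miR-3620-3p, 0.43 for miR-7686-5p, and 0.73 for miR-6385, against a median of 1.19 over the 470 tested miRNAs with a signal above 0 on all 12 arrays. From the lowest SD upward, these are places 1, 4, 19, and 97 of 470. Places 1 and 4 belong to the dimmest of the 4, miR-3475-5p at 28.6 to 41.5 units and miR-3620-3p at 43.6 to 71.2 units. The part of nearness to background in their small spread was not tested. After scaling the order turns, with SDs of 1.03, 0.98, 1.18, and 1.48 against a median of 0.62, and places 401, 384, 441, and 460. A median miRNA differed 12.9-fold between its dimmest and brightest array without scaling. The choice of the miRNAs for their scaled falls bears on these places, so they carry no test. The medians also include miRNAs that passed the detection filter only on the brighter arrays.

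On the scaled values the same signals were lower at the later times. In percent of the 75th percentile, miR-3475-5p was at 10.0%, 13.6%, and 8.74% in sham, 7.16%, 5.75%, and 9.11% at 3 DPI, 5.02%, 3.24%, and 3.65% at 14 DPI, and 1.21%, 2.84%, and 2.24% at 42 DPI. The 3 DPI values overlap sham and the later ones lie below it. On the same scale, miR-3620-3p was at 16.4%, 21.0%, and 13.7% in sham, 10.9%, 9.82%, and 15.0% at 3 DPI, 8.70%, 5.35%, and 6.38% at 14 DPI, and 2.19%, 4.72%, and 3.72% at 42 DPI, again with overlap at 3 DPI alone.

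For the other two the groups separated later. The scaled signal of miR-7686-5p was 66.4%, 64.4%, and 52.4% in sham, 54.0%, 20.5%, and 47.4% at 3 DPI, 67.3%, 16.2%, and 14.1% at 14 DPI, and 8.65%, 11.9%, and 10.1% at 42 DPI. Replicate 1 of 14 DPI was above all sham arrays, whereas the other two of its group were below them. For miR-6385 the values were 145%, 57.4%, and 38.1% in sham, 75.3%, 54.1%, and 113% at 3 DPI, 41.5%, 13.0%, and 12.7% at 14 DPI, and 10.6%, 9.12%, and 8.37% at 42 DPI. Here too replicate 1 of 14 DPI reached into the sham range and the 42 DPI arrays did not.

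**Figure D2:**
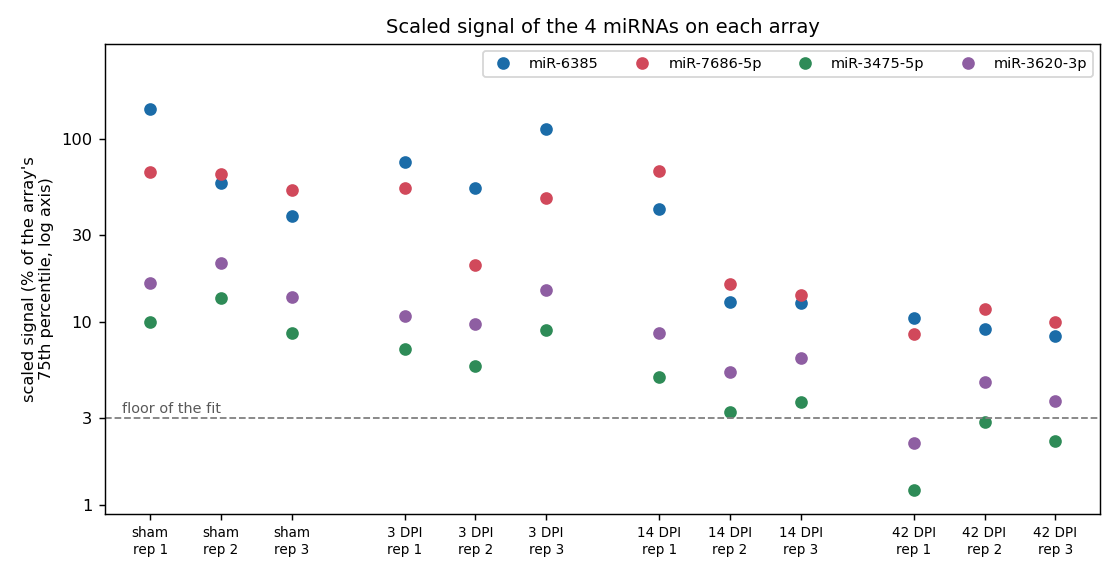
Scaled signal of the 4 miRNAs (percent of the array's 75th percentile, log axis) for the 3 replicates of each group. The dashed line is the floor of the fit at 3% of the percentile, under which the 3 arrays of 42 DPI fall for miR-3475-5p and 1 array for miR-3620-3p; replicate 1 of 14 DPI lies in the sham range for miR-6385 and above it for miR-7686-5p.

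A full separation below sham, with every injured array lower than every sham array, was found for 0 of the 4 at 3 DPI, for 2 at 14 DPI (miR-3475-5p and miR-3620-3p), and for 4 at 42 DPI, where the shares among all tested miRNAs were 1.44%, 9.26%, and 35.6%. The counts at 14 and 42 DPI follow from how the miRNAs were chosen. Without scaling, the count of miRNAs with all injured arrays below sham was 0 of 4 at each time. The share of all tested miRNAs below sham was not counted, but 86.0%, 96.9%, and 99.4% of them had an unscaled change above 0. All injured arrays lay above sham for 0, 1, and 2 of the 4, against 28.6%, 76.5%, and 92% of the tested miRNAs.

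In the fit over all 12 arrays, scaled values under 3% of the percentile were set to that floor before log2 was taken. The mean scaled log2 change against sham at 14 DPI was -1.84 ± 0.59 (SE, n = 3 arrays a group) for miR-6385, -1.29 ± 0.58 for miR-7686-5p, -1.44 ± 0.22 for miR-3475-5p, and -1.33 ± 0.26 for miR-3620-3p. Leaving out replicate 1 of 14 DPI moved miR-7686-5p from -1.29 to -2.03. At 42 DPI the changes were -2.87, -2.59, -1.82, and -2.16 in the same order, and without the floor, an alternative chosen after the values were seen, -2.43 for miR-3475-5p and -2.32 for miR-3620-3p. The median change of all tested miRNAs was 0.00 at 14 DPI and -0.09 at 42 DPI.

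Without scaling the same contrasts gave changes near 0. At 14 DPI the unscaled log2 change was -0.12 for miR-6385, 0.43 for miR-7686-5p, 0.28 for miR-3475-5p, and 0.39 for miR-3620-3p, where the median of all tested miRNAs was 1.23. At 42 DPI it was -0.05, 0.23, 0.39, and 0.50 against a median of 1.76. At that time 99.4% of the tested miRNAs had an unscaled change above 0, and limma called 78.6% higher and 0% lower. Counted from the lowest unscaled change at 42 DPI, miR-6385 was in place 2 of 486, miR-7686-5p in place 7, miR-3475-5p in place 28, and miR-3620-3p in place 45. Dividing an array by 1 number shifts all its miRNAs alike, so the sign of the 3 with an unscaled change above 0 turned with the scaling by construction, and these places are a description.

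**Figure D3:**
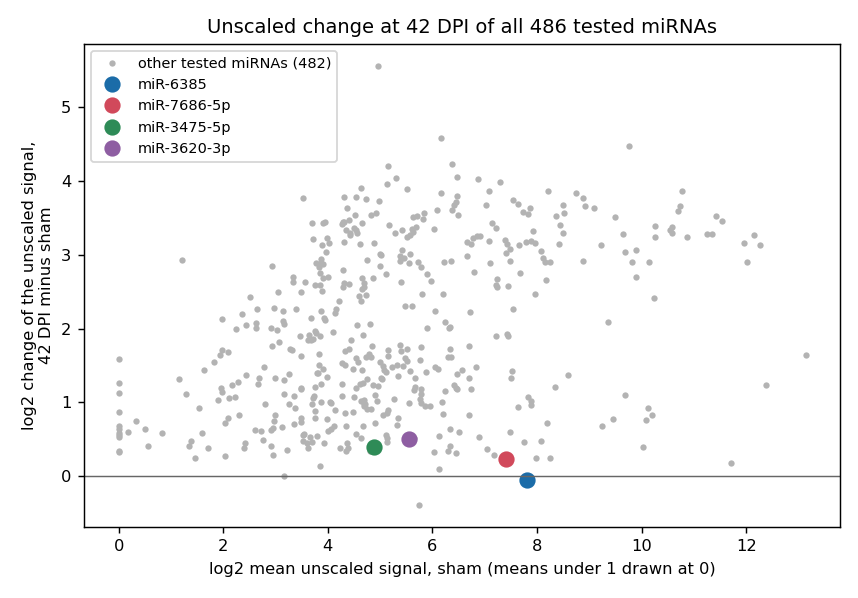
Log2 change of the unscaled signal at 42 DPI against sham for the 486 tested miRNAs, plotted over the log2 mean unscaled signal in sham (means under 1 drawn at 0). Signals under 21.0 units were set to 21.0 before the change was taken, and the 4 miRNAs (colored) lie at the low edge of the cloud, between -0.05 and 0.50, where the median of all is 1.76.

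A further scale came from control spots. Of the control probes printed on each array, dmr_285 and dmr_31a changed little, with means of 743 and 647 units in sham and 1062 and 698.5 units at 42 DPI, or 1.43- and 1.08-fold. Dividing each array by the geometric mean of these 2 probes, an alternative chosen after the values were seen, placed all 4 miRNAs near 0. At 14 DPI the log2 changes were -0.48 for miR-6385, 0.08 for miR-7686-5p, -0.08 for miR-3475-5p, and 0.03 for miR-3620-3p. The values at 42 DPI were -0.37, -0.08, 0.08, and 0.19 in the same order, and the median of all tested miRNAs was 1.59. What these control probes detect is not given in the sources used here.

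**Figure D4:**
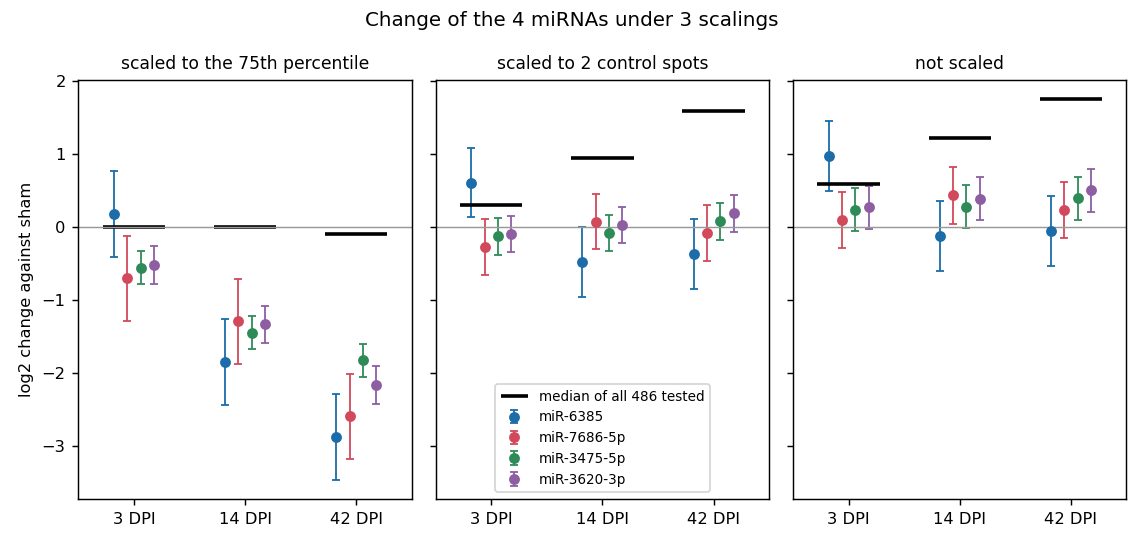
Log2 change against sham of the 4 miRNAs at 3, 14, and 42 DPI with each array scaled to its 75th percentile (left), to 2 control spots (middle), or not at all (right). Points are fitted means of 3 arrays against 3, bars are their SE, and black lines mark the median of all 486 tested miRNAs, which at 42 DPI is -0.09, 1.59, and 1.76 from left to right.

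The 3 DPI group was set against the same sham arrays as the groups that chose the miRNAs. A choice for falls from these sham arrays can favor miRNAs that were high in them, which would also lower the 3 DPI changes. With the threshold at an adjusted p of 0.05, limma called 0 of the 4 miRNAs at 3 DPI, and 0% of all 486. Before adjustment 1 of the 4 passed the same threshold, and 2.26% of all did. The scaled log2 change of miR-3475-5p was -0.56 ± 0.22 (SE, n = 3 arrays a group), with a 95% interval of -1.06 to -0.05, an unadjusted limma p of 0.035, and an adjusted p of 1. For miR-3620-3p it was -0.52 (interval -1.11 to 0.06, adjusted p of 1 by limma).

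The other two had wide intervals. The change of miR-7686-5p was -0.70 with an interval of -2.02 to 0.63, the lowest value among the 486 at that time, and the change of miR-6385 was 0.18 with an interval of -1.15 to 1.51. Both adjusted limma p-values were 1. The change of miR-7686-5p was -0.26 without replicate 2 of 3 DPI. Counted from the lowest, its place was 4 of 470 without the floor and 78 of 486 without scaling. Without sham replicate 3 the change of miR-6385 was -0.24 and without replicate 3 of 3 DPI it was -0.10. Unscaled changes at 3 DPI were 0.97 for miR-6385, 0.10 for miR-7686-5p, 0.24 for miR-3475-5p, and 0.27 for miR-3620-3p, with adjusted limma p-values between 0.281 and 0.960.

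Sham shared no slide with 14 or 42 DPI, so within a slide these groups can only be set against 3 DPI. On slide 2 the scaled log2 mean of the 3 arrays of 14 DPI minus that of the 2 arrays of 3 DPI, without the floor, was -2.04 for miR-6385, -0.32 for miR-7686-5p, -0.89 for miR-3475-5p, and -0.86 for miR-3620-3p, and the unscaled differences were -1.25, 0.47, -0.10, and -0.07. For 42 DPI the scaled differences from 3 DPI on that slide were -3.07, -1.62, -1.87, and -1.84 in the same order, and the unscaled ones -1.18, 0.27, 0.02, and 0.05. On slide 1 the single array of 3 DPI differed from the mean of the 3 sham arrays by 0.14, -0.17, -0.57, and -0.63 scaled, and by 0.67, 0.36, -0.04, and -0.10 unscaled. With slide as a block, the fitted scaled changes at 42 DPI were -2.93, -1.79, -1.84, and -2.32, resting on that single array as the link to sham, and limma called 0 of the 486 miRNAs at any time.

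The probes of each miRNA told the same course. At 42 DPI the scaled log2 changes of the 2 probes, without the floor, were -2.99 and -2.76 for miR-6385, -2.67 and -2.53 for miR-7686-5p, -2.37 and -2.47 for miR-3475-5p, and -2.30 and -2.33 for miR-3620-3p. Unscaled, the 8 probes lay between -0.17 and 0.52. Detection of miR-3475-5p was the weakest of the 4, since 1 of its probes had 6.67% to 40.0% of its spots above background in sham and the other had 53.3% to 73.3%. At 42 DPI these shares were 81.8% to 100% and 86.7% to 100%.

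The rank of the miRNAs within an array does not depend on any scaling. Among the 1881 miRNAs ordered from the brightest, the median place of miR-6385 was 91 in sham, 75 at 3 DPI, 187 at 14 DPI, and 218 at 42 DPI. That of miR-7686-5p went from 84 in sham to 109, 166, and 202. For miR-3620-3p the places were 197, 237, 290, and 335, and for miR-3475-5p 249, 305, 379, and 416. At 42 DPI, a time used in the choice, all 4 were behind their place in sham.

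The difference between 2 miRNAs of the same array is also free of the scaling. The log2 difference of miR-3475-5p and miR-3620-3p was nearly constant, with an SD of 0.074 over the 12 arrays. It was -0.66 ± 0.04 (SD, n = 3) in sham, -0.70 ± 0.09 at 3 DPI, -0.77 ± 0.04 at 14 DPI, and -0.77 ± 0.07 at 42 DPI. The SD was 0.53 for miR-7686-5p against either of them and 0.73 to 0.80 for miR-6385 against the other 3. Among the 4 miRNAs, the difference of this pair thus varied least. Both of its unscaled signals varied little themselves, with SDs of 0.22 and 0.26, and pairs of other tested miRNAs were not set beside it.

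The miRNAs with the most similar course were looked for among all 485 others, by the root mean square difference of the centered scaled log2 values over the 12 arrays. For miR-3620-3p the nearest were miR-7022-3p (0.0912) and miR-7055-3p (0.137), and for miR-3475-5p miR-7115-3p (0.107) and miR-6943-3p (0.110), where the median candidate stood at 0.863 and 0.762. Nearest to miR-7686-5p were miR-211-3p (0.163) and miR-7047-5p (0.224), with a median of 1.13. The neighbors of miR-6385 were farther away, miR-7042-5p at 0.389 and miR-3098-5p at 0.416, with a median of 1.42. None of the 8 is 1 of the 4 miRNAs, and 7 of the 8 also carry late numbers, the exception being miR-211-3p. On this measure miR-3475-5p and miR-3620-3p stood 0.223 apart, farther than the named neighbors of each. The floor and the array's percentile enter every one of these values.

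The opposite arms of the hairpins were not used to choose the miRNAs. Strands from the same hairpin are cut from 1 precursor, and which strand is kept can differ. Their sequences, shown to set each arm beside its partner, are from RefSeq with the seed in capitals.
mmu-miR-7686-3p: cUGCUCGGggcacuguaagaga
mmu-miR-3475-3p: uCUGGAGGcacaugguuugaa
mmu-miR-3620-5p: cUGUGGGCugggcugggaagca

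The arms of miR-3620 went apart in unscaled signal. The signal of miR-3620-5p was 49.3, 30.1, and 42.6 units in sham, 52.2, 41.2, and 86.3 at 3 DPI, 170.2, 94.8, and 81.1 at 14 DPI, and 132, 85.4, and 94.8 at 42 DPI. All arrays of 14 and 42 DPI were above all sham arrays, and those of 3 DPI overlapped sham. The unscaled log2 change was 1.46 ± 0.39 (SE, n = 3 arrays a group) at 14 DPI, with an adjusted limma p of 0.0068, and 1.36 at 42 DPI, with an adjusted p of 0.0049 by limma, where 61.9% and 78.6% of all tested miRNAs were called. Scaled, the change was -0.26 at 14 DPI (adjusted p of 0.866 by limma) and -1.46 at 42 DPI (interval -2.70 to -0.22, adjusted p of 0.0673), so the call and the direction depended on the scaling. Scaled to the control spots, it was called higher at both times (adjusted limma p of 0.0318 and 0.0208), where 44.2% and 74.3% of all tested miRNAs were called higher. Its change there was 1.04 at 42 DPI, against a median of 1.59 over all tested miRNAs. Without replicate 1 of 14 DPI, the scaled change at 42 DPI was -1.48 with an adjusted limma p of 0.0111, and without the floor it was -1.46 with an adjusted limma p of 0.0332. The share of all tested miRNAs called lower was not counted in either fit. With all arrays and the floor it was 20.6% at 42 DPI. One of the 2 probes of miR-3620-5p had 0% of its spots above background on the 3 sham arrays and on 2 arrays of 3 DPI, and the other had 100% on all 12 arrays.

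Within an array, the log2 difference of miR-3620-5p over miR-3620-3p was 0.07, -0.60, and -0.16 in sham, 0.26, -0.56, and 0.36 at 3 DPI, 1.74, 0.60, and 0.19 at 14 DPI, and 1.04, 0.38, and 0.46 at 42 DPI. Each array of 14 and 42 DPI exceeded each sham array, and 3 DPI overlapped. The mean shift from sham was 0.25 at 3 DPI, 1.07 at 14 DPI, and 0.85 at 42 DPI. As the 3' arm was chosen for its fall at these times, the shift is a description, and it shows unequal change of the arms, not which of them changed.

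**Figure D5:**
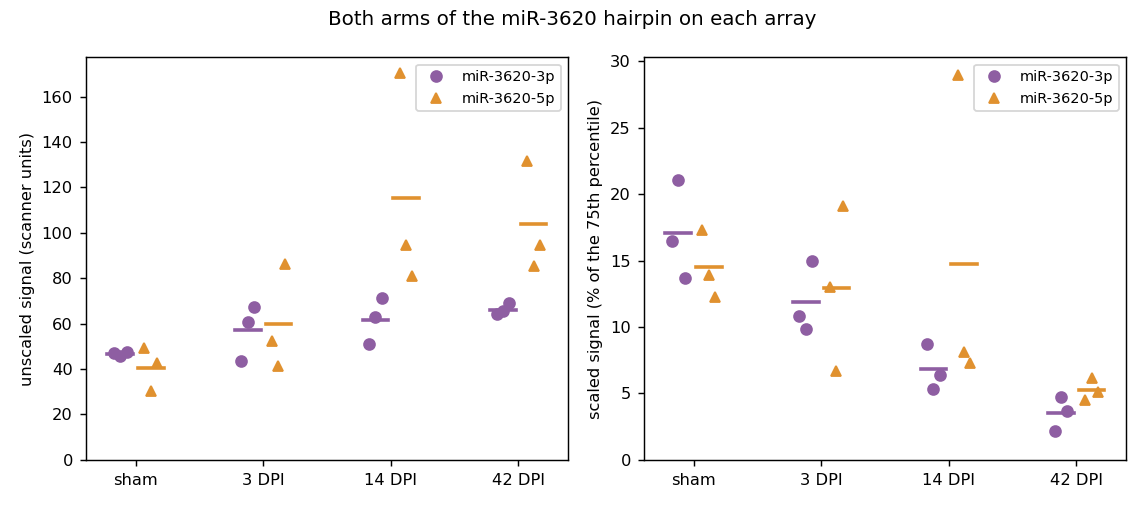
Signal of miR-3620-3p (circles) and miR-3620-5p (triangles) on the 3 arrays of each group, unscaled in scanner units (left) and as percent of the array's 75th percentile (right), with horizontal bars for the means. Unscaled, the 5' arm moves from 30.1 to 49.3 units in sham to 85.4 to 132 units at 42 DPI and the 3' arm from 45.7 to 47.6 units to 64.2 to 69.0 units; levels of the arms come from different probes, so only their courses are compared.

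The other partner arms were dim. The signal of miR-3475-3p was 0.03, -0.08, and 3.05 units in sham, 4.76, 6.09, and 0.95 at 3 DPI, 1.01, 15.7, and 16.7 at 14 DPI, and 51.3, 18.4, and 25.7 at 42 DPI. It was detected on 0 arrays of sham and of 3 DPI, on 2 of 3 at 14 DPI, and on 3 of 3 at 42 DPI, and it lay at the floor on all 12 arrays after scaling, so no fold is given. Of miR-7686-3p no array gave a detection, and it was not tested.

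Late registration was shared with many tested miRNAs. Besides these 4, 151 tested miRNAs carry a number of 3000 or more and 331 carry none or a lower one. At 42 DPI limma called 31.8% of the late ones lower and 1.99% higher in scaled signal, with a median log2 change of -1.09, against 14.5% lower and 19.0% higher with a median of 0.10 for the earlier ones. Over all 486 the shares were 20.6% lower and 13.6% higher. Late miRNAs called lower numbered 48 at 42 DPI, 22 without replicate 1 of that group, and 81 without replicate 1 of 14 DPI. Unscaled, 0% of the late ones were called lower and 59.6% higher, with a median of 1.04, and the median of the earlier ones was 2.60. The scaled changes of the 4 miRNAs, -2.87 to -1.82, lie below the median of the late ones, which is no finding, given the choice.

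Base composition moved with the change in the same way. The 418 tested miRNAs with a sequence were divided by GC share into a low, a middle, and a high class of nearly equal size. The median scaled change at 42 DPI was 0.43 in the low class, 0.00 in the middle class, and -0.90 in the high class, and the unscaled medians were 2.94, 2.24, and 1.24. The high class holds miR-7686-5p and miR-3620-3p, and the middle class miR-6385 and miR-3475-5p. The unscaled changes of the latter, -0.05 and 0.39, lie below the median of 2.24 of their class, which is no finding, given the choice. The part of base composition in the falls was not tested.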

How the data were processed

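The authors deposited the scanner output of 12 single-color arrays (Agilent Feature Extraction 10.7.1.1, per the submitters' processing notes), with a background-corrected intensity per spot on a linear scale, with no normalization across arrays. A deposited table of log2 values, whose scaling is not stated, served as an alternative.

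Control and outlier spots were left out, spots of a probe averaged, probes of a miRNA summed, and and each array divided by its 75th percentile (230 miRNAs with detection throughout). Values were floored at 0.03 of it (-5.06 on the log2 scale) and fitted with limma 3.58.1 in R 4.3.3, with no covariate (two-sided, Benjamini-Hochberg adjustment over 486 miRNAs detected on all arrays of a group). Other steps ran in Python 3.11.15, NumPy 2.4.6, pandas 2.3.3, SciPy 1.17.1, and Matplotlib 3.10.9. The 4 miRNAs and all lists were chosen with earlier results of these data known. Named were the 4 miRNAs, their opposite arms, and the 2 nearest courses to each. Also named were the strand that shares a seed and the myeloid miRNAs without detection in sham. In a simulation of 162 of 486 miRNAs moved by 1.5 (log2) at 3 DPI, 87.0% were recovered and 2.08% of calls were false. Its noise was independent between values, with no shift of slide or brightness. The fitted changes of the 4 miRNAs at 3 DPI, -0.70 to 0.18, were smaller, so this recovery gives no power for them.

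Same-numbered arrays of sham and 14 DPI deviated together from their group means (correlations of 0.83, 0.44, and 0.75 over the tested miRNAs), and those of sham with 3 DPI (-0.44, 0.57, and -0.73) or 42 DPI (-0.42, -0.07, and 0.27) did not. The pairing comes from these correlations alone. Blocking on the replicate number gave 4 calls at 14 DPI in place of 18. The number of arrays limits the precision of each comparison.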

Additional observations from a re-analysis of the deposited data

Results flagged for a closer look

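Some control spots outside the comparisons were far brighter at 42 DPI than in sham, with every array of 42 DPI above every sham array. The means at 42 DPI over sham were 18.3-fold for hur_1, 18.7-fold for hur_6, 6.15-fold for hur_4, 5.25-fold for hur_2, and 4.01-fold for mr_1. By the same ratio of means, the 75th percentile that scaled the 4 miRNAs rose 7.27-fold, against 7.05-fold from mean log2 values. On the same arrays dmr_285 and dmr_31a rose 1.43- and 1.08-fold, and the unscaled log2 changes of the 4 miRNAs were -0.05 to 0.50. What these control probes detect is not given in the sources used here.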

How the results depend on the processing

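The 0 calls among the 4 miRNAs at 3 DPI stood under each alternative run, the methods' t-test included. Of all 486 tested miRNAs, 19.5% were called at 3 DPI with the deposited log2 values, against 0% in the fit given above. With the deposited values, the lowest adjusted limma p among the 4 at that time was 0.0692, for miR-3475-5p. In the fit given above, the median log2 change of the 4 was -0.54 at 3 DPI, -1.39 at 14 DPI, and -2.37 at 42 DPI. With no scaling it was 0.25, 0.33, and 0.31, with reversed values at 3, 14, and 42 DPI of 0.10, 0.43, and 0.23 for miR-7686-5p, 0.24, 0.28, and 0.39 for miR-3475-5p, and 0.27, 0.39, and 0.50 for miR-3620-3p. Scaling to control spots, chosen after seeing the data, gave medians of -0.11, -0.024, and -0.0010, with reversed values of 0.076 for miR-7686-5p and 0.031 for miR-3620-3p at 14 DPI and of 0.079 for miR-3475-5p and 0.19 for miR-3620-3p at 42 DPI. The median at 42 DPI was also -1.68 with the percentile over all miRNAs, -1.999 with quantile normalization, -2.12 with the scanner software's total signal, -2.04 with 2 times the floor, and -2.08 with slide as a block. The causes were not tested. Leaving out each array in turn gave medians of -0.71 to -0.33, -1.83 to -1.24, and -2.52 to -2.24, and -0.24 to 0.71 for miR-6385 at 3 DPI. The opposite arms had 0 calls. With no scaling and with control spots there were 2 each, miR-3620-5p higher at 14 and 42 DPI. The deposited table gave 2, miR-3475-3p higher at both times, where 20.2% and 29.4% of all tested miRNAs were called higher. Normexp background gave 4, miR-3475-3p and miR-3620-5p lower at both times, where 72.4% and 79.8% of all were called lower. The software's total signal gave 1, miR-3475-3p higher at 42 DPI. No floor (chosen after seeing the data) and 0.5 times the floor gave 1 each, miR-3620-5p lower at 42 DPI. The same 1 call came with detection on all 12 arrays and with only the groups compared. Leaving out an array gave 0 to 1. For the settings with 1 call, the share of all tested miRNAs called was not counted. In the fit given above, 20.6% were called lower and 13.6% higher at 42 DPI, so such a call is no finding about the arms. In this balanced design a replicate block cannot move a difference of group means, so medians stay at -0.54, -1.39, and -2.37 by construction and say nothing of the pairing. The calls under the block were 0 for the 4 miRNAs at 3 DPI and 0 for the opposite arms. Late-numbered miRNAs called lower at 42 DPI were 48, and 147 with normexp background, 83 in the fit of only the groups compared, 81 with no floor, 78 with 0.5 times the floor, 19 with 2 times the floor, 12 with no filter, and 0 with no scaling, control spots, or slide as a block. Signal near background limits miR-3475-5p and the arms of miR-3475 and miR-7686.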
